A study of Rattus norvegicus with 66 samples.

Results

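The comparison of low-dose bisphenol A with controls rests on 13 male rat pups, 4 of the BPA0.5 group and 9 controls, out of 64 pups of the series, and the 13 were chosen by group label alone. BPA0.5 pups came from dams that ate soy-free chow containing bisphenol A at 0.5 mg/kg body weight from before mating through pregnancy and lactation. Controls were 4 feeding controls (CONF), whose dams ate the chow without the chemical, and 5 injection controls (CONSC), whose dams were injected with the vehicle, named saline in the sample descriptions and DMSO in the methods. All were Long Evans rats, killed on postnatal day 6 while exposure was still running, and the tissue was dorsal hippocampus with a small piece of the neocortex beside it. Every BPA0.5 pup came from a different litter (69, 72, 73 and 75), and so did every control pup. Males given low doses of the polychlorinated biphenyl mixture Aroclor 1254 (the group Aro0.5, n = 4, at 0.5 mg/kg in the chow) or of the insecticide chlorpyrifos (the group CPF1, n = 4, at 1 mg/kg, injected into the dam) shared the fit.

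Bisphenol A is a monomer of polycarbonate plastics and epoxy resins. It binds oestrogen receptors weakly and acts on several other hormone receptors, thyroid hormone signalling among them, which is why it is called an endocrine disrupter. In the rat hippocampus the end of the first postnatal week is a time when granule neurons are still born, axons and dendrites grow and synapses form. Transcripts of neuronal growth, of hormone receptors and of synapses were therefore groups to look at. Genes of energy metabolism were read as well, and all lists were chosen with earlier results of these data known.

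Total counts were 10644138 to 25719035 per pup in BPA0.5 and 10777044 to 34218370 in controls. Values per gene are given as CPM, the counts per 1000000 counts of a pup, and CPM are compared between pups for 1 gene, never between genes. The Y-linked genes Kdm5d (323 to 1423 counts) and Eif2s3y (885 to 2951 counts) were present in all 13 pups, as the label male requires. Markers of hippocampal pyramidal and granule neurons summed to 460 to 596 CPM in BPA0.5 and 561 to 735 CPM in controls, with both entries of Fibcd1 at 0 in every pup. Whether such zeros, here and in other genes below, come from the tissue or from the read counting was not tested. In such bulk tissue, fewer cells of a type and less RNA per cell cannot be told apart. In a principal component analysis of the 21 low-dose and control pups, 73-4Y stood apart from the other BPA0.5 pups on the second component (−21.7 against 3.41 to 8.00), which held 14.6% of the variance, and 72-4Y on the third (−27.1 against −4.84 to 0.367), which held 7.95%. Of the controls, pup N2-2Y had 2 libraries with different forms of name, which were summed on their label alone, and all other libraries of the comparison carry the capital form. The chi-square per gene between these 2 libraries was 31.7, above the median of 12.1 over 25 pairs of different pups of 1 group (3.28 to 38.5), and with the capital-named library alone 1 gene was called in place of 7.

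Few transcripts changed. Of 16139 genes compared with the quasi-likelihood test of edgeR, 7 had a Benjamini-Hochberg adjusted p under 0.05 in BPA0.5 against controls (0.0434% of those tested), 4 of them higher (0.0248%) and 3 lower (0.0186%). Higher were the mitochondrially encoded ND1, ND2 and ATP6 and the pseudogene entry Hmgb1-ps4, and lower were Dpysl5, LOC100361457 and LOC103690104. At an unadjusted p under 0.05 there were 1384 genes (8.58%), 499 higher (3.09%) and 885 lower (5.48%). In 18 genes (0.112%) all 4 BPA0.5 pups lay above the range of the 9 controls, and in 64 genes (0.397%) all 4 lay below it. DESeq2 called 37 genes, 15 higher (0.0929%) and 22 lower (0.136%), which is 0.229% of the genes, among them the 7 of edgeR.

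The most coherent difference was in the mitochondrial genome. This small circular genome holds 13 protein genes, all of them subunits of the respiratory chain or of ATP synthase, which are transcribed as long precursors and cut into single messengers. Together they took 8.30% of the counts of pup 69-4Y, 10.2% of 72-4Y, 10.3% of 73-4Y and 8.23% of 75-1Y. In controls this share had a lowest value of 6.31%, a median of 7.08% and a highest value of 8.08%. Each of the 4 BPA0.5 pups was thus above each control, with 72-4Y and 73-4Y well separated and the other pair just above control N3-4Y. The mean was 9.25% ± 1.14 (SD, n = 4) against 7.07% ± 0.511 (SD, n = 9), a difference of 2.18 percentage points (2-sided exact permutation test, p = 0.00280, adjusted p = 0.0140 over 5 comparisons of this share). Against CONF alone, the controls that shared the route, the difference was 1.84 percentage points (exact permutation p = 0.0286, the smallest that 4 against 4 allow, adjusted p = 0.0357). Against CONSC alone it was 2.45 percentage points (exact permutation p = 0.0159, adjusted p = 0.0357). With the groups fully apart, each of these permutation p-values is the smallest that its group sizes allow. The share sums genes of which 3 were called in these same pups, so its p-values add no independent evidence. The adjustment covers only the comparisons of this share, not the choice of this set out of the 39 gene lists read here.

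**Figure D1:**
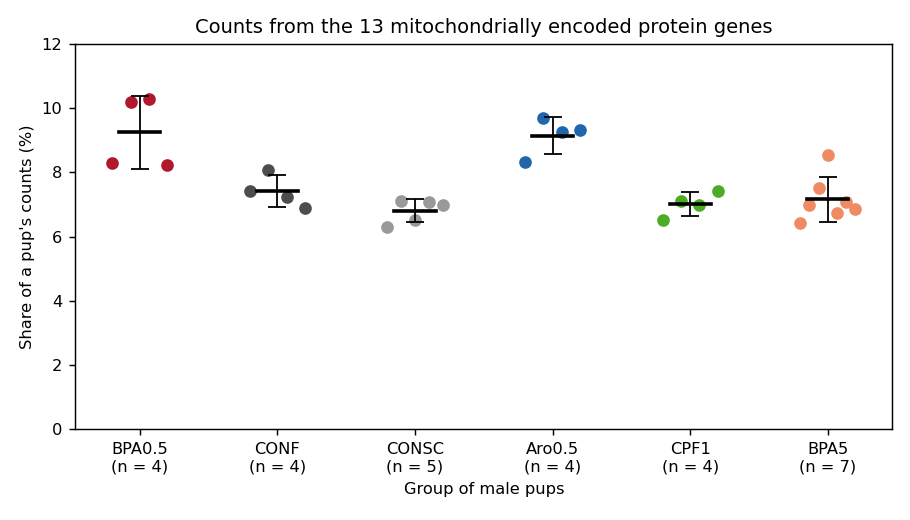
Share of each male pup's counts, in percent, that came from the 13 mitochondrially encoded protein genes, by group. Points are pups, thick lines are means and bars are SD. The 4 BPA0.5 pups lie between 8.23% and 10.3% and the 9 controls between 6.31% and 8.08%, while the 4 Aro0.5 pups lie between 8.34% and 9.68%.

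All 13 of these genes had higher values in BPA0.5 at an unadjusted p under 0.05, beside 3.09% of all genes tested, and 3 passed the adjusted threshold. Because they share precursors, they are not independent, and their agreement is not 13 separate results. Their log2 fold changes ran from 0.29 to 0.51 with a median of 0.39, where the median of all genes tested was 0.00. ND1, a subunit of complex I, had 8309 CPM in 69-4Y, 10546 in 72-4Y, 10381 in 73-4Y and 8587 in 75-1Y, and 5826, 6597 and 8192 CPM as lowest, median and highest control. No BPA0.5 pup overlapped with controls in ND1, and the log2 fold change was 0.51 ± 0.09 (SE, edgeR adjusted p = 0.0193). ND2, also of complex I, reached 8317 to 10942 CPM against 6431 to 8132 CPM (log2 fold change 0.49 ± 0.08, edgeR adjusted p = 0.0193). ATP6, the channel subunit of ATP synthase, reached 12731 to 16674 CPM against 9836 to 12268 CPM (log2 fold change 0.47 ± 0.08, edgeR adjusted p = 0.0234). In both genes, too, the groups did not overlap.

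The other 10 did not pass the adjusted threshold. COX1, COX2 and COX3, the core of cytochrome c oxidase, had log2 fold changes of 0.39, 0.37 and 0.38, and CYTB, the core of complex III, 0.39. Among complex I subunits, ND4 was at 0.49, ND4L at 0.40, ND3 at 0.35, ND5 at 0.30 and ND6 at 0.29, and ATP8 of ATP synthase was at 0.33. For COX1, COX2 and COX3 edgeR's adjusted p was 0.0574, and DESeq2 called 11 of the 13. COX1 and COX2 were, with ND1, ND2 and ATP6, the 5 genes in which the groups did not overlap. ND6, which is encoded on the opposite strand from the rest, had the widest error (log2 fold change 0.29 ± 0.13).

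**Figure D2:**
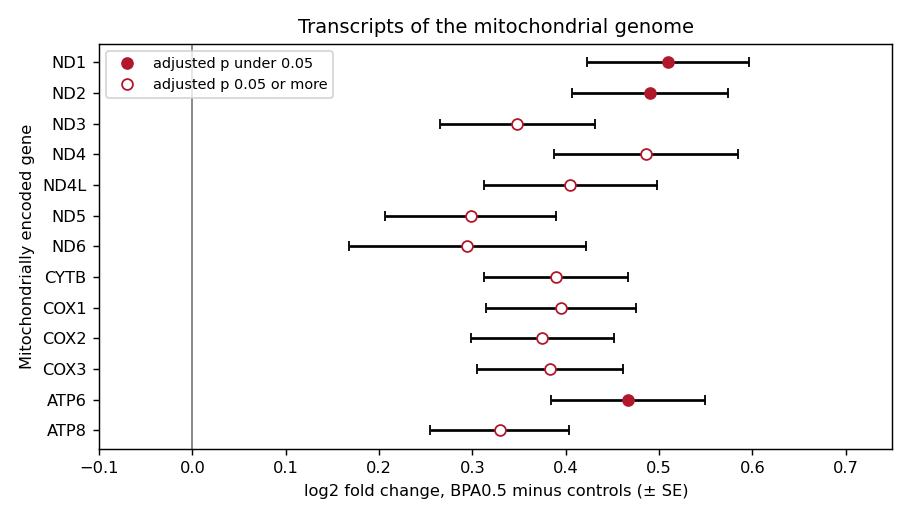
Log2 fold change of the 13 mitochondrially encoded protein genes in BPA0.5 minus controls, with SE as bars. All 13 are above 0, from 0.29 to 0.51, and the filled points ND1, ND2 and ATP6 have an adjusted p under 0.05.

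The nuclear genes of the same complexes had a median near 0. Of 75 nuclear subunits of the respiratory chain and ATP synthase tested, 2 were higher and 1 lower at an unadjusted p under 0.05, none passed the adjusted threshold, and the median log2 fold change was −0.01. The 3 were Ndufa13 (log2 fold change 0.70 at under 1 CPM), Ndufs4 (0.15) and Uqcrq (−0.40). Tfam, which packs mitochondrial DNA and starts its transcription, was at 0.11 (edgeR adjusted p = 0.707), and Ppargc1a, a coactivator of mitochondrial genes, at 0.08 (adjusted p = 0.874). Polrmt, the mitochondrial RNA polymerase, was at −0.34 (adjusted p = 0.539). These 3 regulators were added after values had been seen. Cytosolic ribosomal proteins, another set of abundant short messengers, had a median of −0.02 over 75 genes, with 4 higher and 1 lower at an unadjusted p under 0.05. In the ribosomal set only Rps27a was higher in all 4 BPA0.5 pups than in all controls, as 0.112% of all genes tested were. It had 9.14 to 9.49 against 6.08 to 9.06 CPM (edgeR adjusted p = 0.436). This level is low for an abundant messenger, and the counting of reads with several matches is not given, so the value is uncertain. Rps4x was at 0.39 and Rpl36 at −0.60.

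A ribosomal RNA, of which a poly-A selected library should hold little, and the small RNA Bc1 were also at higher values. Bc1, a short neuronal RNA made by RNA polymerase III, had 90.3 CPM in 69-4Y, 146 in 72-4Y, 291 in 73-4Y and 172 in 75-1Y, against 41.1, 81.1 and 121 CPM as lowest, median and highest control. The groups overlapped through 69-4Y, and the log2 fold change was 1.15 ± 0.27 (edgeR adjusted p = 0.166). Rn18s, the entry of 18S ribosomal RNA, had 432, 505, 353 and 278 CPM in the same 4 pups against 138, 226 and 331 CPM, which gave a log2 fold change of 0.81 ± 0.21 (edgeR adjusted p = 0.276). Its overlap came from 75-1Y alone. Rn45s, the precursor that contains it, holds nearly the same reads. Neither gene passed the test, both were named after their values had been seen, and their part in the mitochondrial difference was not tested.

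Among nuclear genes, Dpysl5 had the lowest p. It encodes a collapsin response mediator protein (CRMP5), a cytosolic protein of growing neurites that is abundant in newborn neurons. Dpysl5 had 16.5 CPM in 69-4Y, 12.2 in 72-4Y, 14.6 in 73-4Y and 20.5 in 75-1Y, against 23.6, 29.3 and 35.4 CPM as lowest, median and highest control. All 4 pups were below all 9 controls. The level was 56.4% of that of controls (log2 fold change −0.83 ± 0.11, edgeR adjusted p = 0.00374), on 130 to 527 counts per BPA0.5 pup. In the control pup with a pair of libraries, Dpysl5 had 24.1 CPM in the library with the capital name and 38.7 CPM in the other. Compared with CONF alone the log2 fold change was −0.79 (adjusted p = 0.162), and without 73-4Y it was −0.79 (adjusted p = 0.0556).

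Its relatives had values closer to 0. Dpysl3 (log2 fold change −0.27, unadjusted p = 0.0109) and Dpysl4 (−0.22, unadjusted p = 0.0414) were lower at the unadjusted level only, by edgeR's test. Crmp1 was at −0.15 ± 0.07 and Dpysl2, the best known member, at 0.00 ± 0.08. Genes of other membrane-bound growth cone proteins, set beside it after values had been seen, went different ways. Basp1, a protein of the inner growth cone membrane, was lower in all 4 BPA0.5 pups (134 to 160 CPM) than in all controls (163 to 202 CPM), with a log2 fold change of −0.31 ± 0.06 (edgeR adjusted p = 0.0574). Marcksl1 was also without overlap (6.95 to 12.5 against 14.2 to 23.2 CPM, log2 fold change −0.74 ± 0.17, adjusted p = 0.144). Its relative Marcks was at 0.18 ± 0.07, and Gap43, the classical growth cone marker, at 0.01 ± 0.07.

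The other lower calls are entries with provisional symbols. LOC100361457, named Actg1l1 in the RefSeq annotation of the build GRCr8 and thus an actin-like gene, had 12.1, 4.89, 7.34 and 8.48 CPM in 69-4Y, 72-4Y, 73-4Y and 75-1Y, and 14.0 to 19.7 CPM in controls with a median of 16.6. There was no overlap, and the level was 50.0% of that of controls (log2 fold change −1.001 ± 0.17, edgeR adjusted p = 0.0193). Actg1, the gene of gamma-actin, had a log2 fold change of −0.05 ± 0.05. LOC103690104 was at 0.564 to 0.823 CPM against 0.973 to 1.67 CPM (−1.02 ± 0.18, adjusted p = 0.0193), which is 6 to 16 counts per BPA0.5 pup. How reads with several matches were counted is not given in the sources used here, so the value of the actin-like entry, which may share reads with other actin genes, is uncertain.

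Hmgb1-ps4 was the only nuclear entry that rose past the adjusted threshold. Its values were 30.96 CPM in 69-4Y, 58.2 in 72-4Y, 52.2 in 73-4Y and 43.1 in 75-1Y, and 21.8, 27.2 and 34.9 CPM as lowest, median and highest control. Pup 69-4Y lay within the control range and the other 3 above it, and the level was 171% of that of controls (log2 fold change 0.77 ± 0.13, edgeR adjusted p = 0.0193). Hmgb1 itself, an abundant chromatin protein, had at most 0.188 CPM in any of the 13 pups, so that this entry may hold reads of the parent gene, and its value is uncertain. Pdcd4, an inhibitor of translation initiation, was next among higher genes. It had 120 to 149 CPM against 94.6 to 116 CPM without overlap, a log2 fold change of 0.34 ± 0.07 and an adjusted p of 0.0511 by edgeR (0.00174 by DESeq2). Eif4g1, a scaffold of the same initiation step that was noticed after values had been seen, was at −0.26 ± 0.06 (edgeR adjusted p = 0.130).

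**Figure D3:**
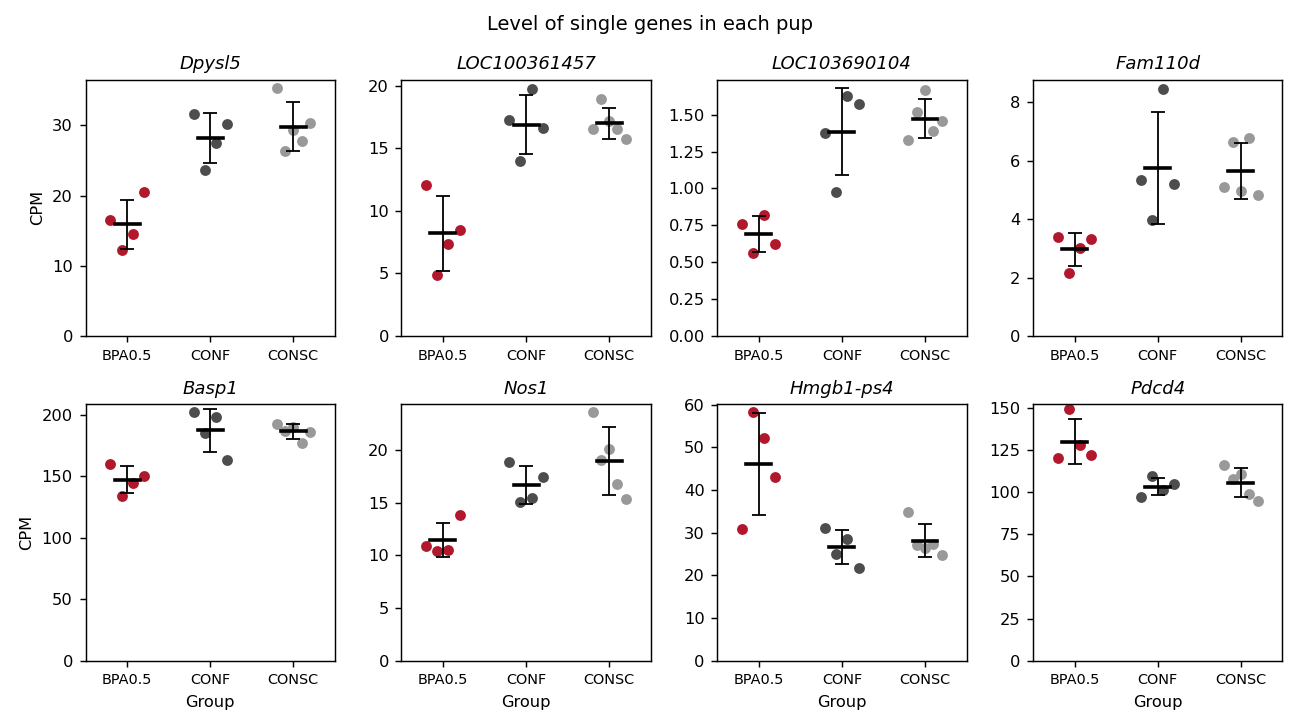
Level in CPM of 8 genes in each pup of BPA0.5, CONF and CONSC, with means as thick lines and SD as bars. BPA0.5 pups lie below all controls in Dpysl5, LOC100361457, LOC103690104, Fam110d, Basp1 and Nos1 and above them in Pdcd4, while 1 BPA0.5 pup lies within the control range in Hmgb1-ps4.

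Among the genes next in p by edgeR, with symbols that start with LOC or RGD and genes under a mean of 1 CPM left out, several more had lower values. Fam110d had 2.16 to 3.38 CPM against 3.98 to 8.45 CPM (log2 fold change −0.88 ± 0.17, adjusted p = 0.0511), without overlap. Sumo2l, an entry similar to the protein modifier gene Sumo2, was at −0.52 ± 0.10 (adjusted p = 0.0511), whereas Sumo2 was at 0.00 ± 0.06. Usp5, a deubiquitinase that takes apart free ubiquitin chains, was at −0.41 ± 0.08 (adjusted p = 0.0601). Hist3h2ba (−0.56), Gpd1l (−0.49) and Ccdc120 (−0.51) each had an adjusted p of 0.130.

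The region upstream of the start of Dpysl5, Pdcd4 and Basp1 is shown to let their sequences be compared. Of the 20 genes called or next in p, 7 were found by symbol in the RefSeq promoter set of build GRCr8. The 3 shown are among these 7. Each run holds 250 bases that end at the base before the start, 5′ to 3′ on the strand of the gene, at chr6:31379349-31379598 (minus strand), chr1:262926445-262926694 (plus strand) and chr2:77594298-77594547 (minus strand). Capitals mark GC boxes, GGGCGG or its reverse complement.
Dpysl5: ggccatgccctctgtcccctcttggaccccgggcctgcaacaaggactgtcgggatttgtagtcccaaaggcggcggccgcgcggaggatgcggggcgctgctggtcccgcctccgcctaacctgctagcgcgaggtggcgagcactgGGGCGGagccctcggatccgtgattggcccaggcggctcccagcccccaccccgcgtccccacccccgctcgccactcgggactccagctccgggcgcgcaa
Pdcd4: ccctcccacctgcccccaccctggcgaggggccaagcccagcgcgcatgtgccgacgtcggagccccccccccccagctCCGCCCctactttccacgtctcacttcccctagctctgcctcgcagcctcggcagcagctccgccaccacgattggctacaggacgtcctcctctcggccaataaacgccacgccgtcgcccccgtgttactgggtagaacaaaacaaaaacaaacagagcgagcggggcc
Basp1: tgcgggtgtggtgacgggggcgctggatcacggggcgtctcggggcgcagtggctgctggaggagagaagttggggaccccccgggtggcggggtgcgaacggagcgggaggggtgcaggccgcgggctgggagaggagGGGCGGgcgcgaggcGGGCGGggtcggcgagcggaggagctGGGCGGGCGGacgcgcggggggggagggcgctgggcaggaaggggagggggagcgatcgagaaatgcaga
GC boxes, which Sp1-type factors bind, occurred once in Dpysl5 and in Pdcd4 and 4 times in Basp1, overlaps included. They occurred in 57.0% of 10790 promoters of tested genes, so that their presence says little. The windows were rich in G and C (72.8%, 66.8% and 76.8%, against a median of 60.0%). No match to the palindromic oestrogen response element, the nuclear receptor half-site AGGTCA or the E-box CACGTG was found on either strand in any of the 3. Half-sites occurred in 10.3% and E-boxes in 7.83% of the 10790 promoters, and the full oestrogen response element in 0.

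Which pups were in the fit decided how many genes were called. Without 69-4Y there were 21 genes with an adjusted p under 0.05, and without 75-1Y there were 31. Without 72-4Y there was 1, Dpysl5, and without 73-4Y there was none, although 2486 genes then had an unadjusted p under 0.05. Pups 72-4Y and 73-4Y were also those with the highest mitochondrial share, and the mitochondrial ND1, ND2 and ATP6 were among the calls. Whether the share has a part in the loss of calls was not tested. Of the controls, N3-4Y was the one whose absence raised the count most, to 19. With CONF as the only controls, edgeR called 0 genes and 543 had an unadjusted p under 0.05, and with CONSC alone 2 genes were called.

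**Figure D4:**
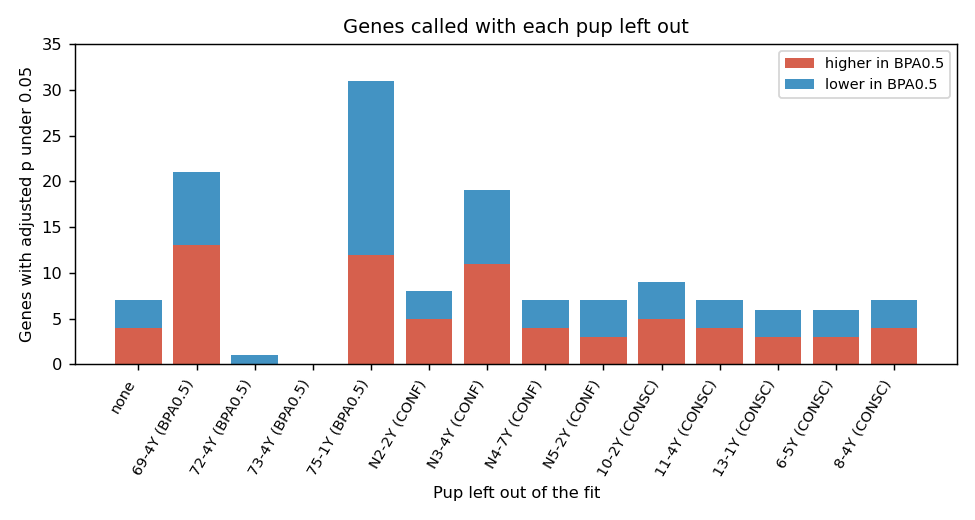
Number of genes with an adjusted p under 0.05 in BPA0.5 against controls, higher (red) and lower (blue), with no pup left out and with each of the 13 pups left out in turn. The count runs from 0 without 73-4Y to 31 without 75-1Y.

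BPA0.5 was also set against the low doses of the other chemicals. Between BPA0.5 and Aro0.5, edgeR called 0 genes, with 2478 at an unadjusted p under 0.05 (15.4%), and DESeq2 called 4. The ranges of the mitochondrial share overlapped between these groups (difference 0.101 percentage points, exact permutation p = 0.971). Set side by side, with controls shared, ND1 had a log2 fold change of 0.51 in both groups, Dpysl5 of −0.83 in BPA0.5 and −0.60 in Aro0.5, LOC100361457 of −1.001 and −0.94, and Hmgb1-ps4 of 0.77 and 0.63. All of these also passed in Aro0.5 minus controls (edgeR adjusted p = 0.0170 for ND1 and LOC100361457, 0.0194 for Dpysl5, 0.0415 for Hmgb1-ps4). ND2 and ATP6 passed there too (both 0.0170), and LOC103690104 did not (0.265). COX1, COX2, COX3 and CYTB passed in Aro0.5 (each 0.0170) but not in BPA0.5. Pdcd4 was at 0.34 in BPA0.5 and 0.03 in Aro0.5, and the difference between the groups was 0.31 ± 0.08 (edgeR adjusted p = 0.286). None of the differences from controls was thus shown to be particular to BPA0.5 when set against Aro0.5.

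Against CPF1, whose dams were injected, edgeR called 4 genes in BPA0.5 (0.0248%), 1 higher (0.00620% of 16139) and 3 lower (0.0186%), with 1893 at an unadjusted p under 0.05 (11.7%), and DESeq2 called 70. Pdcd4 was higher (log2 fold change 0.45 ± 0.08, adjusted p = 0.0392). Lower were RGD1563441, named Rnf227 in GRCr8 and so a RING finger gene (−1.14 ± 0.18, adjusted p = 0.0243), Sumo2l (−0.72 ± 0.12, adjusted p = 0.0243) and LOC100361457 (−1.12 ± 0.20, adjusted p = 0.0392). RGD1563441 had 2.35 to 4.46 CPM in BPA0.5 and 5.82 to 8.69 CPM in controls (−0.84 ± 0.16, adjusted p = 0.0511). The mitochondrial share was 2.24 percentage points higher in BPA0.5 than in CPF1 (exact permutation p = 0.0286, adjusted p = 0.0357), and Dpysl5 was at −0.66 ± 0.13 (edgeR adjusted p = 0.0820). Without 73-4Y, 257 genes were called in this comparison, 237 of them lower, and without 72-4Y 0 were called by edgeR, with 838 at an unadjusted p under 0.05.

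In the 7 males of BPA5, the group at the higher dose of 5 mg/kg, some of these genes had values near those of controls and others did not. Because these libraries carry the other form of name, dose and set of libraries cannot be told apart, and the values are only set side by side. ND1 was at 0.10 in BPA5 minus controls where BPA0.5 was at 0.51, and Dpysl5 at 0.10 where BPA0.5 was at −0.83. Hmgb1-ps4 was at 0.10, LOC100361457 at −0.11, Basp1 at 0.17, Pdcd4 at −0.04 and Nos1 at 0.15. Farther from 0 were ND6 at −0.92, Marcksl1 at 0.53, Fam110d at 0.52 and Ccdc120 at 0.38. The mitochondrial share in BPA5 was 7.16% ± 0.696 (SD, n = 7), with 8.54% in the highest pup.

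Gene lists were then read by pathway. In 39 lists, only that of mitochondrially encoded genes had a member past the adjusted threshold, and 28 had a median log2 fold change within 0.1 of 0. Counts of higher and lower members that follow are at an unadjusted p under 0.05 by edgeR, to be read against 3.09% higher and 5.48% lower among all genes. Where signs alone are counted, 8003 of all genes tested had a fold change above 0 and 8136 below 0.

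**Figure D5:**
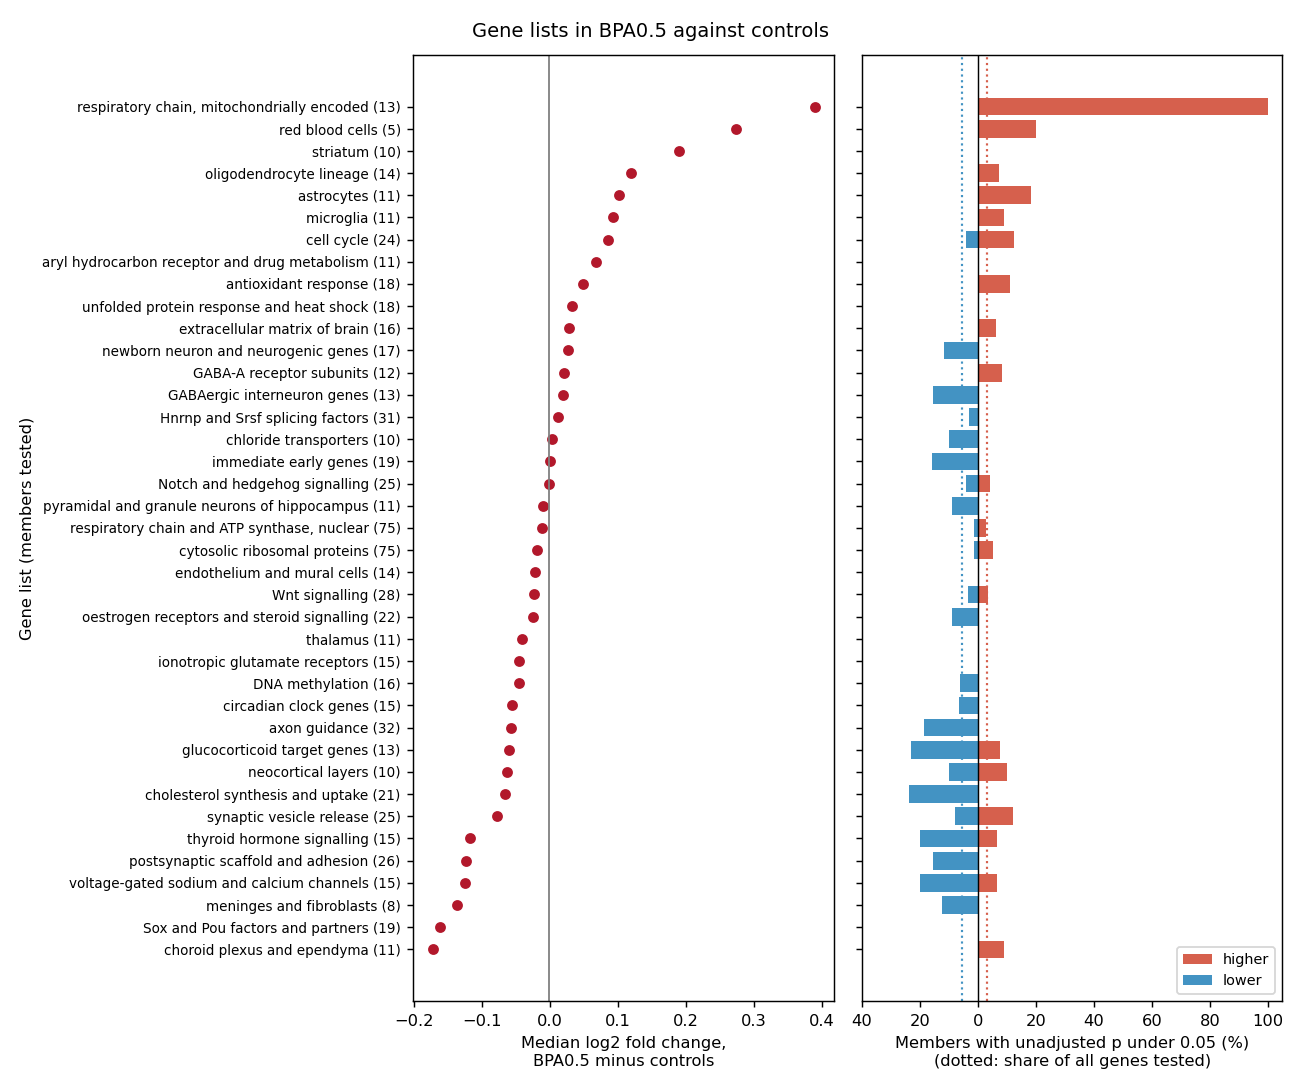
Median log2 fold change of 39 gene lists in BPA0.5 minus controls (left, grey line at the median of all genes) and percentage of each list's tested members that were higher (red) or lower (blue) at an unadjusted p under 0.05 (right, dotted lines at 3.09% and 5.48%). The 13 mitochondrially encoded genes, which share precursors and are not independent, stand apart with a median of 0.39 and 100% higher.

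Of the targets of bisphenol A, the oestrogen receptor gene Esr1 had overlapping values. It had 5.82, 6.29, 4.32 and 6.07 CPM in the 4 BPA0.5 pups and 3.73 to 9.70 CPM in controls (log2 fold change 0.02 ± 0.20, adjusted p = 0.991). By real time RT PCR on a larger number of samples, the paper reports lower mRNA of this receptor in males at the lower doses. The second receptor gene, Esr2, had 1 to 9 counts per BPA0.5 pup and 1 to 7 per control and was not tested. Of 22 genes of steroid signalling, 2 were lower and none higher, the steroid sulphatase gene Sts (−0.52) among them. Of 15 genes of thyroid hormone signalling, 3 were lower and 1 higher, and 13 had a fold change below 0. They were led by Nrgn, a thyroid-responsive gene of the postsynapse (93.0 to 179 against 177 to 295 CPM, log2 fold change −0.59 ± 0.19, adjusted p = 0.436), and included Rxrb (−0.28), a partner of thyroid hormone receptors. Of 13 glucocorticoid target genes, 3 were lower and 1 higher, among them Per1 (−0.28), Zbtb16 (−0.51) and Tsc22d3 (0.14). Genes induced by foreign compounds through the aryl hydrocarbon receptor had no member at this level among 11 tested.

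The list of Sox and Pou factors with their partners was drawn up by the study on high-dose pups that share these controls, and is no independent evidence of a direction. By edgeR 0 of its 19 tested entries had an unadjusted p under 0.05, and DESeq2 called 0 at an adjusted p under 0.05. Their median was −0.16, and 13 of 19 values were below 0, with all groups overlapping. Lowest were Efnb2, a ligand of Eph receptors (−0.42 ± 0.23), Sox11 of immature neurons (−0.40 ± 0.24), an entry of Tcf7l2 (−0.35 ± 0.34) and the neuregulin receptor gene Erbb4 (−0.26 ± 0.25). Notch2 (−0.23), Sox6 (−0.21), Pou3f3 (−0.19), Pou2f2 (−0.19), Gli3 (−0.18) and Pou3f2 (−0.16) followed. Nrg1 (−0.06), Fzd3 (−0.04), Pou2f1 (−0.01), Sox17 (0.00), the second entry of Tcf7l2 (0.01), Sox5 (0.04), Sox4 (0.06) and Epha4 (0.06) were near 0, and Sox2 of neural stem cells was at 0.13 ± 0.08. The SE of these values ran up to 0.34. By real time RT PCR on male samples of the same litters not used for sequencing, the paper reports raised Sox6, Sox11 and Pou2f1 mRNA at this dose. In the counts read here, the values of these genes were below 0, with overlap between the groups.

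Interneurons, the GABA-releasing minority of hippocampal neurons, were read from 13 tested marker genes, of which 2 were lower and none higher. Nos1, neuronal nitric oxide synthase, had 10.9 CPM in 69-4Y, 10.4 in 72-4Y, 10.6 in 73-4Y and 13.8 in 75-1Y, against 15.03, 17.5 and 23.7 CPM as lowest, median and highest control. No pup overlapped, and the log2 fold change was −0.62 ± 0.15 (edgeR adjusted p = 0.166, DESeq2 adjusted p = 0.0212). The gene thus passed only with DESeq2. The peptide genes Cck (−0.47 ± 0.22, unadjusted p = 0.0412) and Sst (−0.34 ± 0.18, unadjusted p = 0.0668) were also below controls, with overlap, while Vip was at −0.05 and Reln, of Cajal-Retzius cells and interneurons, at −0.12. The GABA-making enzymes Gad1 (0.12) and Gad2 (0.02), the vesicular transporter Slc32a1 (−0.14), and Pvalb (0.23), Calb1 (0.12), Calb2 (0.04) and Htr3a (0.07) did not pass the unadjusted level, and Npy had no counts.

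Synaptic and neuronal lists had no adjusted call. Of 26 genes of postsynaptic scaffold and adhesion, 4 were lower and none higher, and 20 of 26 values were below 0. Dlgap4 (97.2 to 138 against 126 to 165 CPM, −0.32 ± 0.09, adjusted p = 0.280) and Nrxn2 (−0.32) were among them, while Dlg4, the PSD-95 gene, was at −0.05. Of 25 genes of vesicle release, 2 were lower, Unc13a (−0.39) among them, and 3 were higher, among them Vamp2 (0.29 ± 0.09) of the fusion complex. Of 15 sodium and calcium channel genes, the T-type channels Cacna1g (−0.27) and Cacna1h (−0.20) were among 3 lower, and Scn3b (0.17) was higher. Glutamate receptors had no member at this level among 15, and GABA-A receptors had 1 of 12, Gabrb1 (0.25). Of 10 genes of chloride transport, 1 was lower, the kinase gene Wnk2 (−0.31). Immediate early genes, which report recent activity, had 3 of 19 lower, Jun (−0.18), Ier2 (−0.35) and Fosl2 (−0.67), and clock genes 1 of 15, Per1. The time of dissection differed between pups, and its part in these values was not tested.

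Axon guidance had 6 of 32 lower and none higher. Ephb2, a receptor that steers axons and builds synapses, had 42.9, 39.3, 39.4 and 46.9 CPM in the BPA0.5 pups and 45.0 to 58.7 CPM in controls (−0.33 ± 0.09, adjusted p = 0.276). Pup 75-1Y alone reached into the control range. The semaphorin receptors Plxna3 (−0.21) and Plxna1 (−0.26) were next. Cholesterol synthesis and uptake had 5 of 21 lower and none higher, among them the synthesis genes Lss (−0.31) and Mvk (−0.40). In neurogenesis, 2 of 17 were lower, the tubulin gene Tubb3 (−0.30) and Neurod2 (−0.39), a factor of maturing excitatory neurons. Among genes of DNA methylation, 1 of 16, Dnmt1, the maintenance methyltransferase, was lower (−0.28 ± 0.09, adjusted p = 0.413).

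Lists of cell division, signalling and stress had no adjusted call either. Of 24 cell cycle genes, 20 had a fold change above 0, with a median of 0.09, and 3 were higher, Ccnb1 (0.22), Cdk2 (0.17) and Cenpf (0.19). Wnt signalling had Fzd8 (0.33) higher and its feedback gene Axin2 (−0.25) lower among 28, and Notch and hedgehog signalling Maml2 (0.27) higher and Jag2 (−0.35) lower among 25. Of 18 antioxidant genes, 2 were higher, Nfe2l2 (0.20), the master regulator of the response, and Prdx1 (0.16), whereas 18 genes of the unfolded protein response and heat shock had none. Hapln1, a link protein of perineuronal matrix, was at 0.38, and the splicing factor gene Hnrnpr at −0.32.

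Markers of other cells were measured as a check of the dissection. Astrocyte markers summed to 2486 to 2918 CPM in BPA0.5 and 2102 to 2706 CPM in controls, and 2 of 11, the gap junction gene Gja1 (0.27 ± 0.09) and S100b (0.30), were higher. Markers of the oligodendrocyte lineage summed to 801 to 1203 against 794 to 1102 CPM, with Mobp of myelin at 3.98 CPM in 73-4Y and 0.470 to 0.778 CPM in the other 3. Microglial markers (153 to 194 against 111 to 191 CPM) and those of red blood cells (688 to 1043 against 457 to 993 CPM, Alas2 at 0.42) overlapped between the groups. Those of vessels (306 to 338 against 311 to 361 CPM) and meninges (154 to 243 against 179 to 305 CPM, Ptgds at −0.44) reached lower in BPA0.5. The tissue piece varied most in neighbouring regions. Choroid plexus markers ran from 1656 to 3390 CPM in BPA0.5 and 1340 to 4063 CPM in controls (Ccdc153 of ependyma at 0.39), striatal markers from 295 to 1139 and 169 to 831 CPM, and thalamic markers from 503 to 941 and 469 to 1289 CPM. Neocortical markers ran from 463 to 610 and 499 to 658 CPM, with Fezf2 at −0.51 and Rspo1 at 0.54, and among hippocampal neuron markers Pou3f1 of CA1 was at −0.47. Listed at 0 in all 13 pups were Otx2 of choroid plexus and Col1a2 and Crabp2 of meninges. Whether cell composition has a part in the gene differences was not tested.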

How the data were processed

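Poly-A selected, stranded libraries were aligned by the authors with STAR to build Rnor_6.0 and counted per gene with featureCounts, and the raw counts were deposited; kallisto is also named in the processing notes. Versions, strand setting and treatment of reads with several matches are not given in the sources used here. The sample descriptions name a NovaSeq sequencer and the methods a HiSeq. Counts of the 2 libraries of N2-2Y were summed. The time window of dissection is the one the paper gives, 10.30 to 13.20 h. By their recorded times, BPA0.5 pup 75-1Y (10.28) and injection controls 10-2Y (10.00), 13-1Y (10.15) and 6-5Y (10.15) fell before it. Of 37777 entries, 865 share a symbol, and each kept its identifier.

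Low-dose and control males (21 pups) were fitted in edgeR 4.0.16 (TMM normalization, filterByExpr by group, quasi-likelihood F test, Benjamini-Hochberg adjustment, threshold 0.05). DESeq2 1.42.0 was an alternative, in R 4.3.3. BPA5 was fitted with high-dose males. The mitochondrial share was compared by 2-sided exact permutation tests in Python 3.11.15 with scipy 1.17.1. Scripts were tested on simulated data. Named genes are the calls and the next in p to 20, the Sox, Pou and interneuron lists, up to 3 members at an unadjusted p under 0.05 of each other list, and calls of the other contrasts, and a few that these rules name are not reported here. Gene lists and members were chosen with earlier results of these data known. Errors are the SD over pups or the fitted SE. For BPA0.5, edgeR's p-values set a difference against a spread estimated over all 21 pups of the fit, Aro0.5 and CPF1 included.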

Additional observations from a re-analysis of the deposited data

Results flagged for a closer look

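Dixon's test was run on the values of each named gene, marker sum and the mitochondrial share, within the 4 BPA0.5 pups and within the 9 controls. It marked 14 of 241 sets, close to the 1 in 20 that chance marks. In BPA0.5, 73-4Y had the lowest Sox6 (8.84 CPM, next 15.4) and the highest Mobp (3.98 CPM, next 0.778), and 75-1Y had the highest Nos1 (13.8 CPM, next 10.9). That Nos1 value was still below all controls. Control N3-4Y, the control with the highest mitochondrial share, was lowest in 4 genes, namely Dlgap4 (126 CPM), Wnk2 (111 CPM), Ephb2 (45.0 CPM) and LOC103690104 (0.973 CPM). These are genes in which BPA0.5 was below controls. They were named because of that difference, so the flags are no separate evidence that N3-4Y resembles BPA0.5. Control 8-4Y was highest in Cck (68.4 CPM), Pvalb (15.6 CPM) and an entry of Tcf7l2 (9.37 CPM). Control 10-2Y was highest in Esr1 (9.70 CPM) and lowest in Sox2 (106 CPM), 13-1Y was highest in Axin2 (19.5 CPM), and N5-2Y was highest in an entry of Notch2 that is almost without counts (0.0714 CPM).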

How the results depend on the processing

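The number of genes called in BPA0.5 against controls was 7, and it was 37 with DESeq2, 11 with DESeq2's size factors in edgeR (4 higher and 7 lower, against 4 and 3), 11 with at least 10 counts in every pup, 0 with only the 2 groups compared, 0 with feeding controls alone, 2 with injection controls alone, 1 within the time window of dissection, 1 with the capital-named library of N2-2Y alone, and 0 to 31 with single pups left out. With the mitochondrial genome removed, an alternative chosen after the data had been seen, it was 4 (1 higher, 3 lower). Against Aro0.5 the count of 0 became 4 with DESeq2 and stayed 0 under the other settings, pups left out included. Against CPF1 the count of 4 became 70 with DESeq2, 0 with only the 2 groups, within the time window or with that library alone, and 0 to 257 with single pups left out. List members called were 3, and 12 with DESeq2, 0 with the 2 groups, feeding controls, time window or that library alone, 1 with injection controls, and 0 to 11 with single pups left out. The mitochondrial share kept its direction under all 17 alternatives, added after the data had been seen (1.83 to 2.52 percentage points with single pups left out). Its exact permutation p stayed under 0.05, but that outcome was fixed in advance. Every BPA0.5 pup lay above every control, so each alternative returned the smallest p that its group sizes allow. ND1, ND2 and ATP6 kept their direction but lost their adjusted calls with feeding controls alone (0.39, 0.42 and 0.39 on the log2 scale), with only the 2 groups, in the time window, with the capital-named library alone, and without 72-4Y or 73-4Y, and so did Hmgb1-ps4, LOC100361457 and LOC103690104. With injection controls alone these calls were lost too, except that of ND1 (adjusted p = 0.0526 for ND2, 0.0599 for ATP6, 0.112 for Hmgb1-ps4 and LOC100361457 and 0.0634 for LOC103690104). ATP6 passed in 8 of 13 fits with a pup left out, failing also without N5-2Y, 13-1Y and 6-5Y, and LOC103690104 in 10 of 13, failing also without 75-1Y. LOC103690104 also failed without the filter on low counts (0.0750). Dpysl5 lost its call with only the 2 groups (adjusted p = 0.0865), with feeding controls alone and without 73-4Y. The causes were not tested.

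Of 105 named genes tested, 18 changed sign under at least 1 setting. Of those near 0, Sox17 fell to −0.00050 with DESeq2, −0.0080 with its size factors, −0.011 with the 2 groups, −0.029 with injection controls, −0.081 in the time window, −0.034 with that library and −0.0011 without the mitochondrial genome. An entry of Tcf7l2 was at −0.0034, −0.0011, −0.0026, −0.078, −0.23 and −0.0038 under the first 6 of these. With injection controls, Pou2f1 was at 0.016, Gad2 at −0.0021 and Esr1 at −0.067. With that library, Gad2 was at −0.0088 and Esr1 at −0.0037. In the time window, Fzd3 was at 0.094, Gli3 at 0.046, Pvalb at −0.071 and Calb2 at −0.12, and with feeding controls Gli3 was at 0.0073. With single pups left out, ranges across 0 were −0.0011 to 0.25 for Calb1, −0.040 to 0.13 for Calb2, −0.034 to 0.18 for Epha4, −0.034 to 0.16 for Esr1, −0.12 to 0.079 for Fzd3, −0.0097 to 0.19 for Gad1, −0.030 to 0.092 for Gad2, −0.12 to 0.18 for Htr3a, −0.12 to 0.017 for Nrg1, −0.13 to 0.22 for Pou2f1, −0.010 to 0.44 for Pvalb, −0.62 to 0.058 for Slc32a1, −0.12 to 0.13 for Sox17, −0.046 to 0.12 for Sox4, −0.066 to 0.18 for Sox5, −0.18 to 0.17 for Tcf7l2 and −0.21 to 0.13 for Vip. No paired analysis was possible because all pups came from different litters. With 4 pups and 10644138 counts in the shallowest library, genes at a few counts gave no usable fold change.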
